A study of Homo sapiens with 4 samples.

Results

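The genes described here are 36 interferon-stimulated genes whose products act on viruses, membranes, RNA or antigens, followed in wild-type NCI-H1944 cells, an established line from a human lung adenocarcinoma. They were picked out of the tables by gene symbol, from a list drawn up with earlier results of these data known, and are 36 of the 27574 gene names in the 2 count tables of the study. Cells were given 100 nM of BAY-1217389 (MPS1i), an inhibitor of the spindle checkpoint kinase MPS1, or DMSO for 48 h, and were then kept for 24 h after washout. From each culture, 10% of the lysate gave total RNA (Input) and the rest was precipitated with J2, an antibody against double-stranded RNA (dsRNA). Input and J2 with either treatment make 4 groups, each of 1 library, so each difference compares libraries without a replicate check and no p-value was computed.

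Interferons bind receptors at the cell surface and act through JAK kinases and the transcription factors these switch on. Such factors bind DNA elements named ISRE and GAS in the promoters of their targets. The genes switched on this way encode effectors: proteins that hold virus at membranes, coat or cut pathogen vacuoles, unwind or degrade RNA, and build nuclear bodies. In epithelial tumour cells the same genes are used as a readout of interferon made after nucleic acids are sensed, and dsRNA is one of the ligands that such sensors bind.

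To show the elements these genes share, RefSeq promoter sequences (GRCh38.p14, from 250 bases before to 50 bases after each start) were searched on both strands for the ISRE letters (GAAA, any 2 bases, GAAA) and the GAS letters (TTC, any 3 bases, GAA). Overlapping matches were each counted. A sequence was matched by symbol for 30 of the 36 genes. APOL1, IFITM2, APOL6, GBP2, IL15 and LY6E are named only. The ISRE letters were found for 18 of the 30, against 4.38% of all 27305 gene symbols with a sequence (3.57% of the 35116 single sequences). The GAS letters were found for 10 of the 30, against 9.38% of the symbols (7.66% of the sequences). The windows below are those of genes that lead the results or form paralog pairs, with 10 bases on each side of the match. They run 5′ to 3′ on the gene's strand, and capitals mark the match, which reads TTTC, 2 bases, TTTC where it lies on the other strand.
IFI6 (chr1:27672266-27672295, minus strand): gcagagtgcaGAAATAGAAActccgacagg
PLSCR1 (chr3:146544667-146544696, minus strand): cgggaaccggGAAAAGGAAAccgtgttgtg
DDX60 (chr4:168318786-168318815, minus strand): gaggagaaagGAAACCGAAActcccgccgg
DDX60L (chr4:168480523-168480552, minus strand): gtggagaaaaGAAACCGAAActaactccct
EPSTI1 (chr13:42992272-42992301, minus strand): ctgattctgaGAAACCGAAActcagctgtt
RTP4 (chr3:187368357-187368386, plus strand): accgaacaccGAAACTGAAActgtttgtct
GBP1 (chr1:89065316-89065345, minus strand): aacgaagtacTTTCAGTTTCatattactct
GBP3 (chr1:89022845-89022874, minus strand): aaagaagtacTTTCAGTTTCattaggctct

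The helicase paralogs DDX60 and DDX60L carried the same 10 letters, GAAACCGAAA, with the match beginning 53 and 50 bases before the start, and EPSTI1, IFI27 and IFITM3 held these letters too. Read on the strand of the motif, GBP1, GBP3 and the second match of RTP4 all held GAAACTGAAA, which was the most shared form, in 7 genes. In GBP1 this match began 127 bases before the start, and in GBP3 it began 3 bases after it. IFI6 held 3 ISRE matches. SP100, SP110, SP140L, IFI35, HELZ2, RNF213, TDRD7, CMTR1, NT5C3A, IFI30, TYMP and MOV10 had a sequence without these letters, which says only that they are not in this window.

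Reads were counted by the authors in stranded regions, and each region carries the name of the gene with the nearest start. The library totals were 6381610 (DMSO) and 4844956 (MPS1i) reads in Input, and 9793355 (DMSO) and 6697479 (MPS1i) in J2. Wherever 4 read counts of a gene are listed, they stand in this order. MPS1i Input was spread over 484849 regions with reads, against 940751 to 1208576 in the other libraries. Of 10 lung epithelium markers summed by name, KRT8 had the most reads, with 3630, 4104, 282 and 278, whereas KRT19 had 3, 0, 0 and 0 and NKX2-1 was at 0 in each library. The summed list was 634 and 937 CPM (read counts scaled to the library total) in Input and 94.0 and 92.9 in J2. Of 8 leukocyte markers, none reached 50 reads in Input or in J2, and their sum went from 2.66 to 11.97 CPM in Input and from 2.96 to 8.51 in J2. Of 8 fibroblast markers, FAP alone did, with 18, 133, 21 and 251 reads, COL3A1 was at 0 in each library, and the summed list went from 6.27 to 30.8 CPM in Input and from 3.98 to 43.0 in J2, a movement whose part in the results was not tested.

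A sum by nearest name can hold reads of a neighbour and miss reads of the gene itself. The members were therefore summed in 2 ways: over gene body rows that carry the name (leaving rows annotated Intergenic or TTS apart), and over rows on the gene's own strand within its GENCODE 29 span. The rows with a member's name lay on its own strand and within its span for 42.8% (DMSO) and 57.8% (MPS1i) of their Input reads, and for 41.1% and 61.4% of their J2 reads. Exons were looked for in the gene body rows with a member's name on its own strand within its span. Of these, 9 of 1494 in Input and 18 of 1909 in J2 overlapped an exon, with 3.65% to 10.6% of their reads. The reads of these rows are thus mostly those of introns and not of mature mRNA. Rows annotated Intergenic or TTS, and own-strand rows that carry another gene's name, were left out of this count. Less RNA per cell and fewer cells with the RNA cannot be told apart in these bulk samples.

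A member counted as measured with 50 or more reads over both libraries of a comparison. It was called higher or lower at a 2-fold ratio of CPM with an exact Clopper-Pearson 95% counting interval that excluded equality, and log2 ratios carry a pseudocount of 0.5 reads. These intervals cover counting error only, and reads without molecular identifiers are not independent molecules.

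In Input, 20 of the 30 measured members were higher with MPS1i and 1, CMTR1, was lower, where 11.5% of all measured genes were called higher and 14.9% lower. The members under the minimum were IFITM1, GBP1, GBP3, RTP4, IFI30 and TYMP in Input, and BST2, IFITM1, IFITM2, IFITM3, GBP1, GBP2, RTP4 and TYMP in J2. The median log2 ratio in Input was 1.60 over these members and -0.18 over all genes. In J2, 15 of 28 were higher and 1, IFI30, was lower, against 15.4% and 17.8% of all genes, with medians of 1.13 and -0.15. Some members reached 50 reads only through the MPS1i library. Where the DMSO library alone held 50 reads, 14 of 23 members were higher in Input against 4.03% of such genes, and 11 of 22 in J2 against 6.68%. Lower calls in that subset were 1 and 0, against 17.4% and 21% of all genes with 50 reads in DMSO. When each region could give at most 1 read, 3 members were called in Input and 4 in J2, all higher. With TMM scaling 20 members were higher and none lower in Input, while over all genes the higher and lower calls went from 1594 and 2063 to 1867 and 1586, and in J2 from 2269 and 2624 to 2642 and 2023.

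On the own strand within the span, 17 of 26 measured members were higher in Input and CMTR1 was again lower, with 12.8% of all genes called higher and 16.8% lower. In J2, 17 of 22 were higher and none was lower, with 15.9% and 19.6% of all genes. With the DMSO library alone at the minimum, 7 of 15 were higher in Input (4.21% of such genes) and 13 of 18 in J2 (6.55%), with 1 and 0 lower (19.9% and 23.2%). Summed by nearest name over all 36 members with no filter, reads went from 7809 to 13083 in Input, a log2 ratio of 1.14 (95% counting interval 1.10 to 1.18), and from 17857 to 22132 in J2, 0.86 (0.83 to 0.89), under 2-fold. Own-strand reads went from 4599 to 9606 in Input, a log2 ratio of 1.46 (1.41 to 1.51), and from 8715 to 17176 in J2, a log2 ratio of 1.53 (1.49 to 1.56). The order of the members by ratio, and the gap between both ways of summing for IFI27, LY6E and TMEM140, are shown in the plot of ratios.

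**Figure D1:**
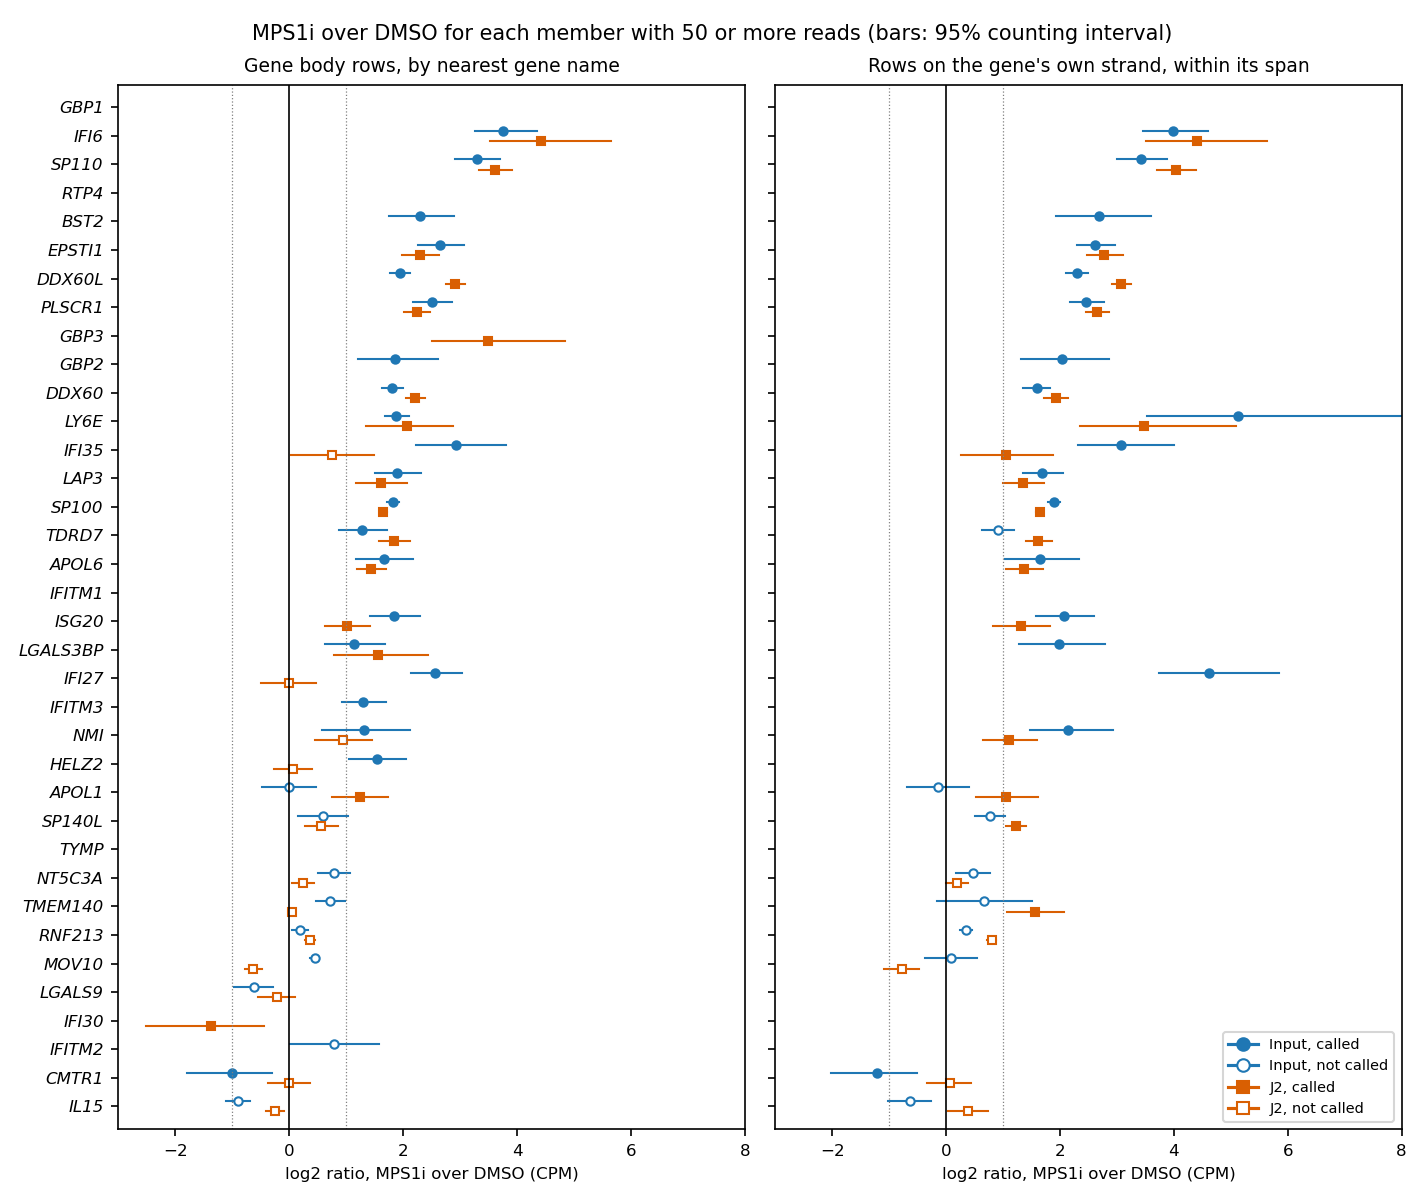
Log2 ratio of MPS1i over DMSO (x axis, from CPM) for each member with 50 or more reads in Input (circles) or J2 (squares), by nearest gene name (left) and on the gene's own strand (right); bars are 95% counting intervals cut at the panel edge, filled symbols are called, and dotted lines mark 2-fold. IFI6 and SP110 lie near the top in both panels, and IL15, CMTR1 and MOV10 have no called increase in either.

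Set beside the promoter windows, 11 of 12 measured members with the ISRE letters were called higher on the own strand in Input and 9 of 9 in J2. Of the members whose window lacks them, 3 of 9 were higher and 1 lower in Input, and 5 of 9 were higher in J2. Over all genes 12.8% and 15.9% were higher. Several members with the letters reached the minimum only through MPS1i. With 50 reads in DMSO alone, 5 of 5 with the letters were higher in Input and 8 of 8 in J2, and 2 of 8 and 4 of 8 without them (4.21% and 6.55% of such genes). These counts are a description of the listed genes and carry no test.

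The other genes of the pathway were summed by name with the same rule. Of 36 further interferon-stimulated genes (IFIT, OAS, MX, PARP and TRIM families and others), 32 of 34 measured by name were higher in Input and none lower, and 30 of 32 were higher in J2 and 1, UBA7, lower. Their median log2 ratios were 2.78 and 2.70. Over all genes 11.5% were called higher and 14.9% lower in Input, and 15.4% and 17.8% in J2. Some of the further genes, such as MX2 with 2 and 274 Input reads, reached the minimum only through MPS1i. This list and the ones that follow were not recounted with the DMSO library alone at the minimum. Of 27 interferon ligands, receptors and signalling genes, 6 of 21 were higher in Input and none lower, and 7 of 20 were higher and 6 lower in J2, with medians of -0.06 and -0.04. Of 15 housekeeping genes, none of 14 was higher in Input and none of 11 in J2, and PGK1 and SDHA were lower in Input.

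USP18, a protease that limits interferon signalling, had 21 and 201 reads in Input and 120 and 606 in J2. Of the ligand genes, IFNB1 had 0, 0, 1 and 4 reads and IFNL1 had 0, 7, 4 and 5. IFNE had 55, 117, 76 and 146 reads by name but none on its own strand. The receptor gene IFNAR1 had 83, 46, 112 and 29 reads and was lower in J2.

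The plot of levels orders the members by their own-strand reads. SP100 was the highest in the sum of the 4 libraries, followed by RNF213 and DDX60L, and IFITM1 and IFI30 were at 0 in each library. Own-strand reads that also overlap another gene on that strand are left out of these sums. Both genes lie wholly within such a gene, IFITM1 in IFITM2 and IFI30 in AC007192.1, and the reads set aside were 0 in each library for IFITM1 and 3, 5, 2 and 2 for IFI30. As the regions and genes differ in length, this order is one of reads and not of transcripts per length.

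**Figure D2:**
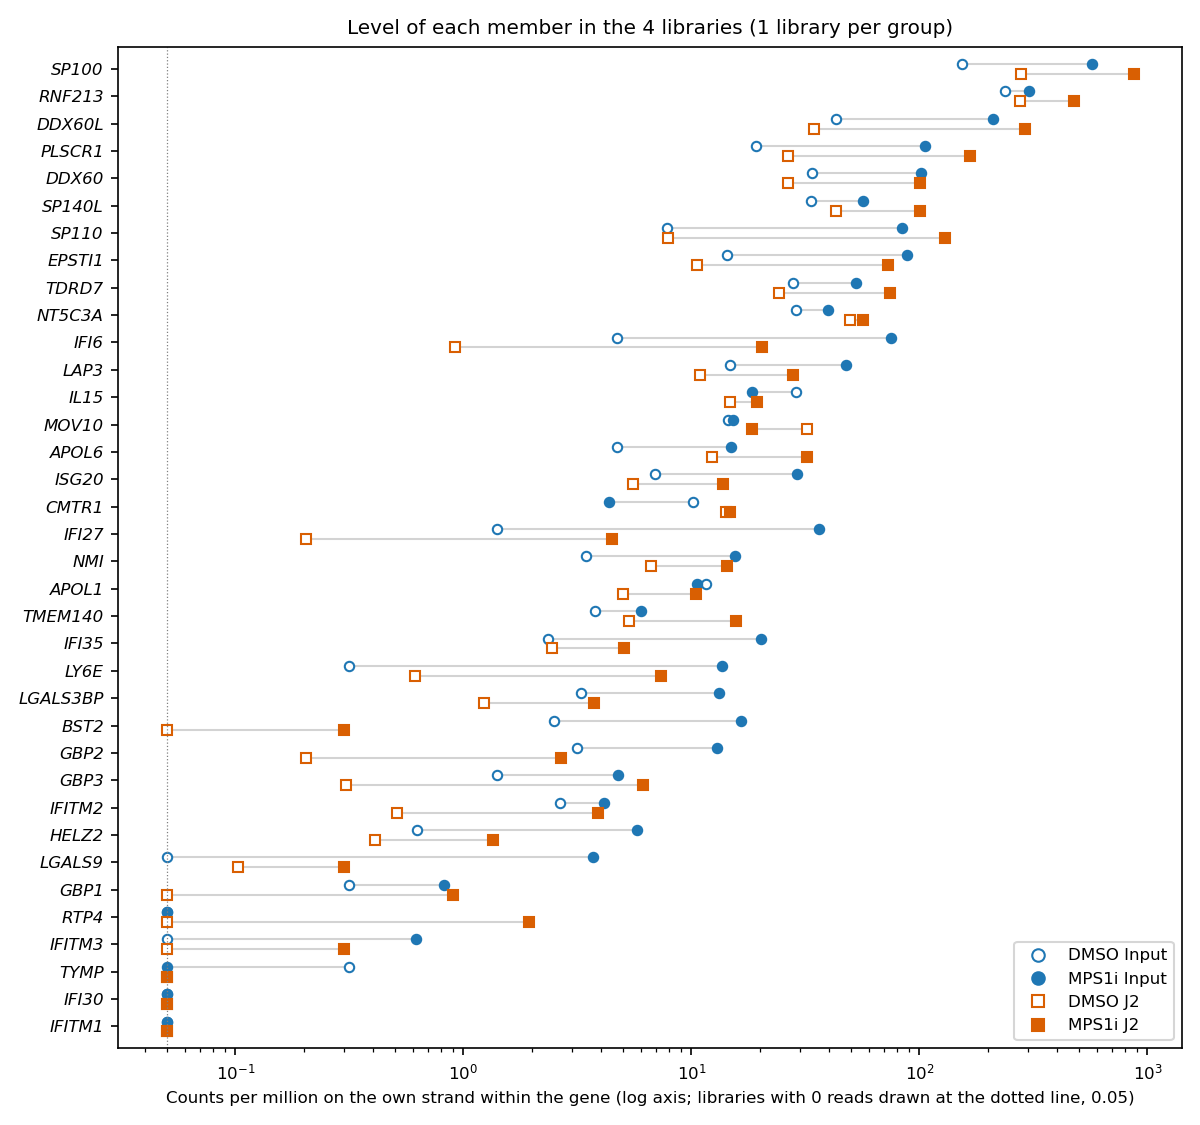
Own-strand CPM within each gene's span (x axis, log scale; 0 drawn at the dotted line) in DMSO (open) and MPS1i (filled) libraries, for Input (circles) and J2 (squares), with grey lines joining the libraries of 1 material. SP100 and RNF213 have the most reads, and RNF213, NT5C3A and MOV10 show short or reversed lines beside the long lines of IFI6, SP110 and LY6E.

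Among the membrane restriction factors, which stop virus entry or release at cellular membranes, PLSCR1, BST2 and LY6E were higher with MPS1i. By nearest name, PLSCR1, a phospholipid scramblase that blocks viral fusion, had 87 and 377 reads in Input and 221 and 715 in J2. Both MPS1i libraries were above both DMSO libraries, with log2 ratios of 2.51 (2.17 to 2.87) in Input and 2.24 (2.02 to 2.47) in J2. On the own strand the ratios were 2.46 and 2.65, from 122, 512, 259 and 1117 reads. Of these own-strand reads 67.2% in Input and 64.8% in J2 carry its name, the others mainly that of PLSCR2.

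BST2, or tetherin, which ties budding virus to the surface, had 34 and 128 reads in Input but 0 and 2 in J2. Its Input log2 ratio was 2.29 (1.75 to 2.90), and its 2 J2 reads were under the minimum although the J2 libraries were the deeper ones. IFITM3, an endosomal protein that blocks virus fusion, had 90, 169, 5 and 7 named reads, an Input log2 ratio of 1.30 (0.93 to 1.69). Those reads lay on the strand of the overlapping AC136475.1, and the strand of IFITM3 held 0, 3, 0 and 2 reads. Whether the named reads came from IFITM3 mRNA was not tested. IFITM1 had 3, 14, 0 and 0 named reads and IFITM2 had 26, 34, 2 and 0, and neither was called. The 3 IFITM paralogs lie side by side in similar sequence, so reads could be split among them.

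LY6E, a membrane protein that hinders coronavirus fusion, showed how a named sum can mix strands. Its named rows held 252, 706, 21 and 61 reads, with log2 ratios of 1.88 in Input and 2.06 in J2. Of these, 251, 673, 18 and 54 reads were on the opposite strand within the span. On its own strand LY6E had 2, 66, 6 and 49 reads, and the log2 ratios were 5.13 (3.53 to 8.52) and 3.48 (2.35 to 5.09). DMSO libraries were near 0 on that strand and both MPS1i libraries were well above it. Of the own-strand reads of LY6E, 1, 33, 3 and 7 were in gene body rows, the others in rows annotated Intergenic or TTS. The last of 5 equal segments of the span held 1, 33, 3 and 42 reads. It lies between the RefSeq end (143022409) and the GENCODE end (143023832) of the gene. In J2, 1 row of that segment held 81.8% of the own-strand reads, so the J2 ratio rests mainly on this row. Whether the row belongs to LY6E transcripts was not tested.

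Opposite-strand reads within the span were measured for 10 members in Input, of which 7 were higher and none lower (26.8% and 7.83% of all genes). In J2 they were measured for 8, of which 6 were higher and none lower (34.5% and 3.53%). Most of these members reached the minimum only with the MPS1i reads added. Where the DMSO library alone held the minimum, 2 of 2 were higher in Input and 2 of 3 in J2, with none lower. The share of all genes at that minimum was not computed on this strand. J2 over Input on this strand was higher for 1 of 4 members in DMSO (APOL6, 15.1%) and lower for 1 (LY6E, 23.5%). In MPS1i it was higher for 2 of 8 (DDX60 and APOL6, 19.6%) and lower for 2 (HELZ2 and LY6E, 16%), and none of 7 was called for change (15.2% higher and 5.39% lower of all genes). Of the named opposite-strand rows of at least 5 kb within members, 19 of 31 in Input and 17 of 28 in J2 had both ends in exons of the member. No named gene body row on the own strand was that long. Between 94.2% and 99.1% of the reads of named opposite-strand rows within members lay in rows that overlap exons of the member. GBP1 is such a case: 1 row of 12142 bases spanning the gene on the opposite strand held 0 and 32 Input reads, at least 14.0-fold higher against a floor of 3 reads per library. Whether these reads came from the opposite strand or from spliced mRNA assigned to it was not tested.

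The share of named gene body reads on the strand opposite to the gene was 21.0% (DMSO) and 17.8% (MPS1i) in Input, and 48.7% and 30.6% in J2. Within the span and outside any other gene the shares were 17.3%, 17.7%, 6.77% and 8.39%. Rows named TMEM140 on the strand of CYREN held 6820 and 4743 of the opposite-strand reads in J2.

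Of the small interferon-induced membrane proteins, IFI6 and IFI27 were higher in Input by name and IFI6 also in J2. IFI6, a protein of the endoplasmic reticulum and mitochondria that protects cells from flavivirus replication, had 32 and 334 reads in Input and 9 and 139 in J2. Its log2 ratios of 3.76 (3.26 to 4.35) and 4.42 (3.53 to 5.66) were the highest by nearest name among measured members in both materials. All 10 Input regions of IFI6 with 20 or more own-strand reads were at least 2-fold higher.

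IFI27, whose product sits in the nuclear envelope and mitochondria, had 54, 244, 93 and 63 named reads. By name it was higher in Input at 2.56 (2.14 to 3.03) and level in J2 at -0.01 (-0.50 to 0.46). Its own strand held 9, 176, 2 and 30 reads, and 35, 28, 87 and 36 named reads lay on the strand of IFI27L1. The own-strand Input ratio was 4.61 (3.73 to 5.84), while J2 with 32 reads in all fell short of the minimum.

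TMEM140, a small membrane protein, was dominated by a neighbour. Its named sum of 232, 291, 7155 and 5067 reads gave log2 ratios of 0.72 in Input and 0.05 in J2, while 24, 29, 52 and 105 reads were on its own strand and within its span. Only 7.55% of these own-strand reads in Input and 22.3% in J2 carry the name TMEM140, the others that of CYREN. There the J2 ratio was 1.56 (1.07 to 2.07), called higher, and the Input ratio was 0.67 (-0.16 to 1.51). In J2, 6820 and 4743 of the named reads lay within the gene on the strand of CYREN.

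RTP4, a chaperone of membrane receptors that also binds viral RNA, had no gene body read in DMSO Input, MPS1i Input or DMSO J2 and 13 in MPS1i J2. Its reads lay past the gene end and are given further on.

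Of the guanylate-binding proteins, GTPases that attack pathogen vacuoles, each had few reads. GBP1 had 2, 36, 0 and 30 named reads, under the minimum in both materials. GBP2 had 25, 70, 6 and 29 reads and was higher in Input at 1.86 (1.21 to 2.60). GBP3 had 13, 22, 8 and 65 reads and was higher in J2 at 3.49 (2.51 to 4.84), while its Input sum was too small to measure. The MPS1i library was above its DMSO library for each GBP in each material, and reads could be split among these paralogs.

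RNF213, a giant ubiquitin ligase with ATPase modules that coats bacteria, had 915, 792, 2264 and 2000 named reads and no called change. Its 3′ part carries the name ENDOV in the tables, and its own-strand sums were 1519, 1465, 2692 and 3201. The log2 ratios over the span were 0.35 (0.24 to 0.45) in Input and 0.80 (0.72 to 0.87) in J2. In J2 the ratio differed along the gene. In 5 equal segments from the 5′ end it was 0.15, 0.10, 0.68, 1.78 and 1.89, and segments 4 and 5, with 231 to 544 and 287 to 726 reads, were called higher. In Input no segment was called, with log2 ratios from -0.03 to 0.59.

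Helicases and RNA-acting proteins split into those that were higher and those that were not. DDX60L and DDX60, paralogous helicases linked to RNA sensing, stood at the upper end. DDX60L had 345 and 1009 named reads in Input and 375 and 1942 in J2, with log2 ratios of 1.94 (1.77 to 2.13) and 2.92 (2.76 to 3.08). DDX60 had 310 and 827 in Input and 385 and 1217 in J2, with ratios of 1.81 (1.62 to 2.01) and 2.21 (2.04 to 2.38). Some rows named DDX60 lie in DDX60L, and the own-strand sums of DDX60 were 215, 491, 260 and 676, with ratios of 1.59 and 1.92.

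Both helicases were unevenly higher along their length, as the plot along 6 members shows. For DDX60 the ratio of segment 1 was 2.86 in both materials, and that of segment 5 was 0.74 in Input and 0.99 in J2, with intervals that do not overlap those of segment 1. In DDX60L the J2 ratio of segment 2 was 4.12 (3.46 to 4.93) and that of segment 5 was 2.72 (2.39 to 3.08). Segment 1 of DDX60L had too few reads to measure.

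**Figure D3:**
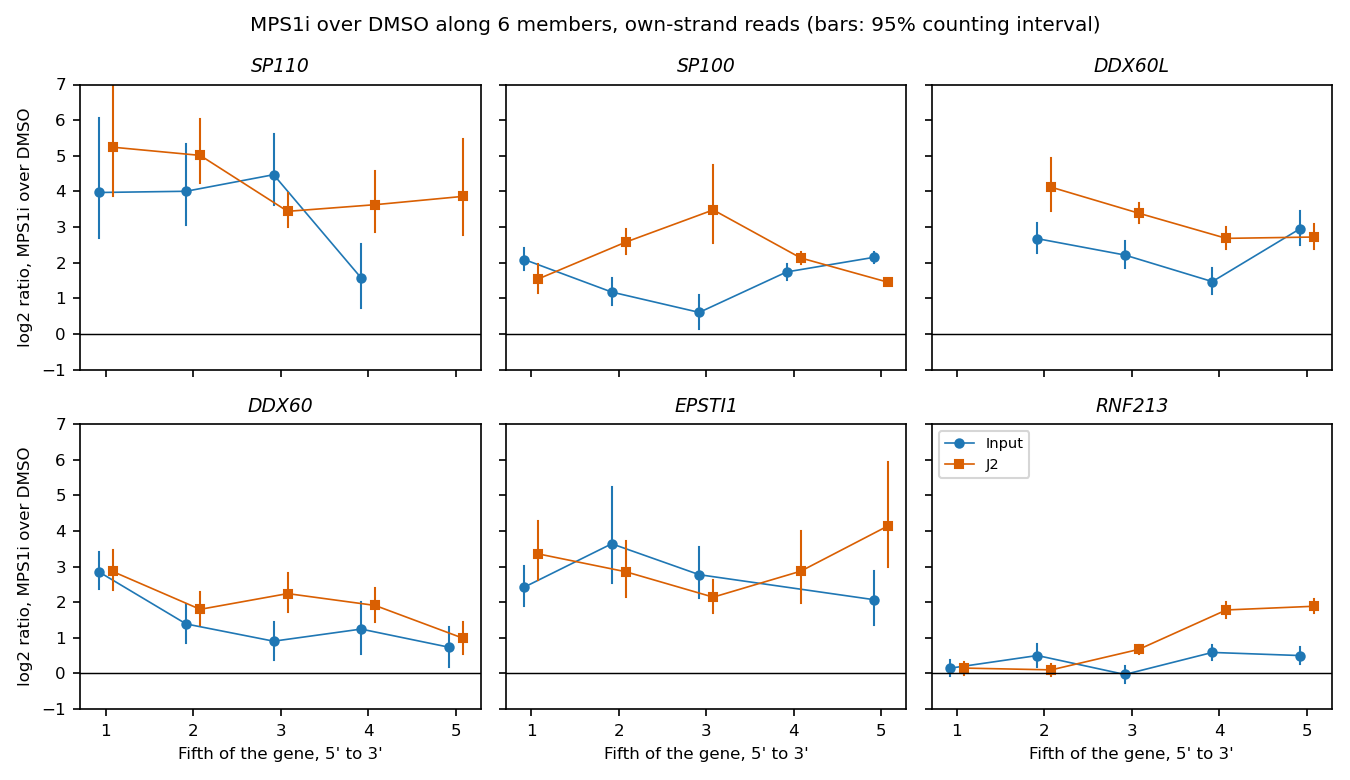
Log2 ratio of MPS1i over DMSO (y axis) in 5 equal segments from the 5′ to the 3′ end (x axis) for own-strand reads of 6 members in Input (circles) and J2 (squares), with 95% counting intervals cut at 7; segments with under 50 reads are left out and lines join the measured ones. DDX60 goes from 2.86 in segment 1 to under 1 in segment 5, and RNF213 in J2 goes from 0.15 to 1.89.

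ISG20, an exonuclease that degrades single-stranded RNA, had 61, 166, 96 and 133 named reads and was higher in both, at 1.83 in Input and 1.02 (0.63 to 1.41) in J2. TDRD7, a Tudor-domain protein of RNA granules that inhibits paramyxoviruses, had 74, 137, 158 and 387 reads and ratios of 1.28 and 1.84. On its own strand the Input ratio of TDRD7 was 0.91 (0.63 to 1.20), no longer a call, and the J2 ratio was 1.62.

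HELZ2, a helicase that serves as a nuclear receptor coactivator, had 52, 115, 185 and 132 named reads. It was called in Input only, at 1.53 against 0.06 in J2, but its own strand held 4, 28, 4 and 9 reads and most of its named J2 reads lie on the strand of GMEB2. MOV10, a helicase that restricts retroelements, had 2482, 2563, 1310 and 579 named reads, of which 2316, 2468, 916 and 424 lay on the strand of CAPZA1. Its own strand held 92, 74, 313 and 124, and it was higher in neither material, with own-strand ratios of 0.09 (-0.38 to 0.54) in Input and -0.78 (-1.10 to -0.48) in J2.

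CMTR1, the cap methyltransferase that marks host mRNA as self, was the only member called lower on its own strand. It had 59, 22, 157 and 107 named reads, with log2 ratios of -1.01 (-1.80 to -0.30) in Input and 0.00 (-0.37 to 0.36) in J2. The MPS1i Input library was the low one. The call by name was lost with TMM scaling (-0.88), with median-of-ratios scaling (-0.92) and at equal depth (-0.88). On the own strand the Input ratio was -1.21 (-2.02 to -0.50), and these alternatives were not run on it.

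Among the nuclear body proteins and their partners was SP100, the member highest in own-strand reads in the sum of the 4 libraries. SP100, a scaffold of PML nuclear bodies, had 1086 and 2908 named reads in Input and 2847 and 6120 in J2. Its log2 ratios were 1.82 (1.72 to 1.92) and 1.65 (1.59 to 1.72), and 27 of its 28 Input regions and all 28 J2 regions with 20 or more own-strand reads had a ratio above equality. SP110, a nuclear body protein linked to immunodeficiency with hepatic veno-occlusive disease, had 62 and 464 reads in Input and 111 and 931 in J2. With ratios of 3.29 (2.92 to 3.71) and 3.61 (3.33 to 3.91), it was far above its paralog SP100 in both materials, and the intervals did not overlap.

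All 14 J2 regions of SP110 with 20 or more own-strand reads were at least 2-fold higher. On its own strand SP110 went from 77 to 866 reads in J2, a log2 ratio of 4.03 (3.70 to 4.40). SP140L, the third paralog, had 84, 96, 194 and 196 named reads and no call, but only 30.1% of its own-strand reads in Input and 30.0% in J2 carry its name, the others mainly that of SP100. Its own strand held 213, 275, 423 and 675 reads, and there it was higher in J2 at 1.22 (1.04 to 1.40) and not called in Input at 0.77 (0.50 to 1.03).

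NMI and IFI35 are binding partners that can be released from cells as danger signals. NMI had 23, 44, 62 and 82 named reads, higher in Input at 1.32 (0.57 to 2.13) and not called in J2 at 0.95 (0.46 to 1.45). IFI35 had 17, 101, 32 and 37 reads, higher in Input at 2.93 (2.22 to 3.80) and not called in J2 at 0.75 (0.04 to 1.49). On the own strand both were called higher in J2 as well, at 1.11 for NMI and 1.04 for IFI35.

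Among the apolipoproteins L and lectins, APOL6, an intracellular lipid-binding protein, had 49, 118, 197 and 365 reads and was higher in both, at 1.66 (1.17 to 2.18) and 1.44 (1.18 to 1.70). APOL1, the trypanosome-lysing apolipoprotein, had 87, 66, 58 and 94 reads. It was level in Input at 0.00 (-0.49 to 0.48) and higher in J2 at 1.24 (0.76 to 1.74). LGALS3BP, a secreted galectin-binding glycoprotein, had 51, 86, 20 and 41 reads and ratios of 1.15 and 1.57. LGALS9, or galectin-9, had 221, 109, 208 and 122 named reads without a call, of which 0, 18, 1 and 2 were on its own strand, the rest lying mostly on that of KSR1.

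Among the enzymes, LAP3, a leucine aminopeptidase that trims peptides, was higher in both, with 72, 205, 64 and 134 reads and ratios of 1.90 (1.51 to 2.32) and 1.61 (1.17 to 2.07). NT5C3A, a pyrimidine nucleotidase, had 188, 247, 490 and 398 reads, and its ratios of 0.79 and 0.25 made no call. In J2, segment 2 of NT5C3A was lower at -1.75 (-2.49 to -1.12) and segment 5 was higher at 1.93 (1.53 to 2.36). TYMP, thymidine phosphorylase, was under the minimum with 10, 13, 6 and 5 reads. IFI30, a lysosomal thiol reductase of antigen processing, had 16, 16, 43 and 11 named reads, lower in J2 at -1.37 (-2.52 to -0.44). No read was unambiguously on its own strand, and 27 and 6 of the J2 reads lay on that of PIK3R2.

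EPSTI1, an epithelial-stromal interaction protein of macrophage and tumour cells, had 62 and 296 reads in Input and 104 and 350 in J2. Its ratios were 2.64 (2.25 to 3.07) and 2.29 (1.98 to 2.63). IL15, a cytokine of T and NK cells, had 633, 258, 971 and 558 named reads, mostly on the strand of INPP4B. On its own strand it had 183, 89, 145 and 130 reads, with ratios of -0.64 (-1.02 to -0.27) in Input and 0.39 (0.04 to 0.74) in J2, and no call.

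The rule for regions to be named took the 3 rows with the largest conservative bound in each table, with coordinates as the files give them (GRCh38; starts may be off by 1 base). In Input these were a row in intron 10 of 18 of SP110 (chr2:230198946-230199157, minus strand) with 1 and 84 reads, a row in intron 1 of 4 of IFI6 (chr1:27671561-27672100, minus strand, over AluY and MIR3 repeats) with 0 and 41, and a row in intron 1 of 4 of IFI27 (chr14:94111047-94111599, plus strand) with 4 and 107. In J2 both leading rows were past the end of RTP4. They were followed by a row in intron 3 of 18 of SP110 (chr2:230214136-230214494, minus strand) with 0 and 44 reads, at least 21.4-fold higher against a floor of 3 reads per library. All 6 rows were read on the gene's own strand.

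Repeats took a share of the members' own-strand reads that differed from that of all genes. Rows over L1 elements held 13.2% and 15.4% of these reads in DMSO and MPS1i Input and 21.1% and 17.8% in J2, while all genes had 8.97%, 9.66%, 12.3% and 12.2%. Rows over Alu elements, which can fold into dsRNA when inverted copies lie in 1 transcript, held 10.9%, 9.06%, 13.9% and 10.4%, below the 12.8%, 13.7%, 19.9% and 17.7% of all genes. With MPS1i the Alu share of the members was lower in both materials. These shares pool the reads of all members, and SP100 and RNF213 weigh most in them. In DMSO Input they held 979 and 1519 of 4599 reads, and in DMSO J2 2731 and 2692 of 8715. The shares were not computed without these genes.

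J2 over Input compares the antibody-bound with the total RNA of the same treatment. By nearest name, 3 of 26 measured members were higher in J2 than in Input in DMSO (HELZ2, APOL6 and TMEM140) and 5 were lower, where 16.4% and 13% of all genes were. In MPS1i, 5 of 31 were higher (GBP3, TDRD7, APOL6, TMEM140 and CMTR1) and 10 were lower, against 15.5% and 11.6%. The lower members were IFITM3, APOL1, LGALS3BP, LY6E and MOV10 in DMSO, and IFI6, IFI27, IFI35, BST2, IFITM3, LAP3, GBP2, LGALS3BP, LY6E and MOV10 in MPS1i. With mitochondrial rows and the 100 most-read regions out of the totals, 1 was higher and 7 were lower in DMSO, and 2 and 12 in MPS1i. All genes moved likewise, from 2332 higher and 1849 lower to 964 and 2922 in DMSO, and from 2239 and 1679 to 1145 and 2653 in MPS1i. In MPS1i, LY6E had a J2 over Input log2 ratio of -3.99, BST2 of -6.15 and IFITM3 of -4.97, and part or most of the Input reads of each were not on the gene's own strand. The highest was TMEM140, with 4.33 in DMSO and 3.65 in MPS1i.

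On the own strand, 2 of 19 members were higher in J2 than in Input in DMSO, APOL6 and MOV10, and 1, APOL1, was lower (20.6% and 10.3% of all genes). In MPS1i, 3 of 27 were higher, APOL6, TMEM140 and CMTR1, and 7 were lower, namely IFI6, IFI27, IFI35, BST2, ISG20, GBP2 and LGALS3BP (19% and 9.54%). APOL6 was higher in J2 in both treatments, at log2 ratios of 1.38 in DMSO and 1.10 in MPS1i. Summed over the 36 members, J2 over Input was 0.30 (0.25 to 0.36) in DMSO and 0.37 (0.34 to 0.41) in MPS1i, where the medians of all genes were 0.35 and 0.30. By nearest name these medians were 0.23 and 0.21, and they were -0.20 and -0.17 without mitochondrial rows and the 100 most-read regions in the totals. Mitochondrial rows held 24.3% and 20.2% of the Input libraries and 0.608% and 0.836% of the J2 libraries.

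The change of J2 enrichment with MPS1i was called for 8 of 28 members by name. GBP3, APOL1 and CMTR1 were higher, where 9.27% of all genes were, and IFI27, IFI35, HELZ2, IFI30 and MOV10 were lower, where 7.54% were. The values were 2.36 (0.94 to 3.78) for GBP3, 1.24 (0.58 to 1.90) for APOL1 and 1.00 (0.22 to 1.79) for CMTR1. The lowest were -2.57 (-3.20 to -1.95) for IFI27 and -2.18 (-3.18 to -1.18) for IFI35. On the own strand 5 of 22 members were called, with APOL1, CMTR1 and IL15 higher (background 9.05%) and NMI and IFI35 lower (7.78%). For CMTR1 and IL15 the Input reads fell with MPS1i, from 65 to 21 and from 183 to 89, and neither was called in J2. APOL1 was called higher in J2 and not called in Input.

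For 5 much-read members the change was under 2-fold. On the own strand the change of enrichment was -0.26 (-0.38 to -0.13) for SP100, 0.19 (-0.15 to 0.54) for PLSCR1, 0.16 (-0.28 to 0.61) for EPSTI1, 0.62 (0.08 to 1.16) for SP110 and 0.79 (0.53 to 1.04) for DDX60L. Over the 36 members summed it was 0.07 (0.00 to 0.13) on the own strand and of the other sign, -0.28 (-0.33 to -0.23), by nearest name. The plot of J2 over Input shows how the 19 members measured in both treatments lie around the line of equality.

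**Figure D4:**
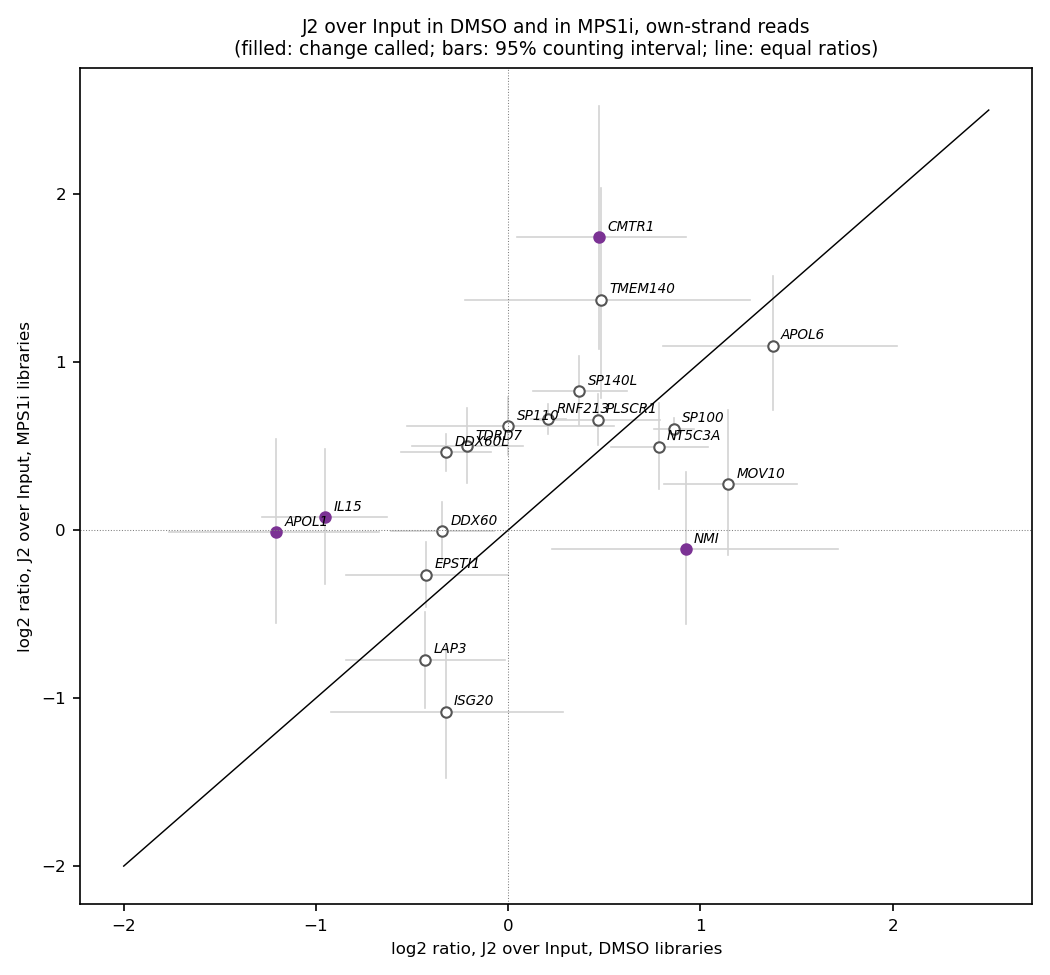
Log2 ratio of J2 over Input in DMSO (x axis) and in MPS1i (y axis) for own-strand reads of the 19 members with 50 or more reads in both comparisons; grey bars are 95% counting intervals, the diagonal marks equal ratios, and the 4 filled points are called for change. CMTR1, IL15 and APOL1 lie above the line and NMI below it, while APOL6 is high in both treatments.

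Rows annotated Intergenic or TTS were kept apart. By nearest name, 8 of 9 measured members were higher in Input and none lower, and 10 of 15 were higher in J2 and none lower. Such rows were often higher in all genes too, at 44.3% in Input and 45.3% in J2, with 3.22% and 4.19% lower. The members' shares are thus read against a high background. Most of the measured members reached the minimum only with the MPS1i reads added. Where the DMSO library alone held the minimum, 3 of 4 members were higher in Input and 3 of 5 in J2, with none lower. For Intergenic and TTS rows the share of all genes at that minimum was not computed. J2 over Input of these rows was higher for 5 of 9 members in DMSO (31.6% of all genes, 6.61% lower) and for 4 of 17 in MPS1i (24.5%, 6.34% lower), and none was lower. The change was called for none of 14 higher (10.2%) and for BST2 and CMTR1 lower (7.79%). Summed over the members they went from 1451 to 2485 reads in Input, a log2 ratio of 1.17 (1.08 to 1.27), and from 1989 to 4378 in J2, 1.69 (1.61 to 1.76). A single row of 23 bases near GBP2 held 868 and 655 of the Input reads.

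RTP4 stood out among them. Its Intergenic and TTS rows held 1 and 149 reads in Input and 15 and 375 in J2, with log2 ratios of 7.04 (5.12 to 12.93) and 5.15 (4.45 to 6.04). In J2 a row at chr3:187372084-187372247, starting 8 bases past the annotated end over an MLT1D repeat, went from 0 to 52 reads. A second at chr3:187372979-187373392 went from 0 to 51. The 2 rows are at least 25.3-fold and 24.9-fold higher against a floor of 3 reads per library. The RTP4 promoter window shown above lies at the other end of the gene.

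A nearest name does not tell what lies just past a gene, so own-strand rows in no gene on either strand were also summed over 20 kb beyond each end, or up to the next gene on that strand. Of the members, 9 of 9 measured were higher in Input and 13 of 14 in J2, BST2 being the exception, while 35.2% and 35.1% of all protein-coding genes were higher and 6.35% and 5.88% lower. Of the members at the minimum in DMSO alone, 2 of 2 and 6 of 6 were higher. The share of all protein-coding genes at that minimum was not computed, so these counts have no matched background. The summed reads went from 1298 to 4490 in Input, a log2 ratio of 2.19 (2.10 to 2.28), and from 4221 to 14024 in J2, 2.28 (2.23 to 2.33). IFITM1 and IFITM2 share a window, so its 12 Input and 9 J2 reads were counted for both. J2 over Input was higher for 2 of 7 members in DMSO, PLSCR1 and GBP3 (43.5% of genes, 3.09% lower), and for 5 of 13 in MPS1i (35.5%, 4.72% lower). The change was higher for DDX60, GBP2 and NT5C3A (10.7%) and lower for GBP3 (9.25%), of 14 measured.

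PLSCR1 held most of these reads. Past its end were 1008 and 3340 reads in Input and 3547 and 11629 in J2, more than on its own strand within the gene in each library. The log2 ratios were 2.13 (2.02 to 2.23) and 2.26 (2.21 to 2.32), and J2 over Input was 1.20 in DMSO and 1.33 in MPS1i. The gene end is the same in RefSeq and GENCODE 29. The 8 most-read Input rows start between 66 and 8018 bases past it, over L1MC4, AluSq2, AluJo, L1M6B, MIRb and MLT2D repeats among others, and carry the name PLSCR2 in the tables.

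Without PLSCR1, the window held 290 and 1150 reads in Input and 674 and 2395 in J2, with log2 ratios of 2.38 in both. LY6E had 40, 266, 69 and 441 reads there, DDX60 had 24, 123, 14 and 141, GBP3 had 4, 95, 55 and 213, and RTP4 had 0, 81, 2 and 223. Each of these was called higher in both materials. With all members, the level per open kilobase was highest in the 5 kb next to the gene and fell with distance in all 4 libraries, as the plot of reads past the gene end shows. Without PLSCR1 it also fell in 3 libraries, but in DMSO Input it was 0.0603 CPM from 5 to 10 kb and 0.0647 from 10 to 20 kb. With all members, the log2 ratio of MPS1i over DMSO lay between 2.12 and 2.52 in Input and rose from 2.21 to 3.18 with distance in J2. Without PLSCR1 it was lower from 10 to 20 kb than from 5 to 10 kb. The values were 2.21 (1.83 to 2.63) against 3.14 (2.72 to 3.61) in Input and 2.45 (2.16 to 2.75) against 3.09 (2.80 to 3.40) in J2. From 20 to 50 kb past the end, with or without PLSCR1, the ratio was 2.52 (2.05 to 3.06) in Input and 3.18 (2.82 to 3.57) in J2. These ratios by distance were not set against those of all genes.

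**Figure D5:**
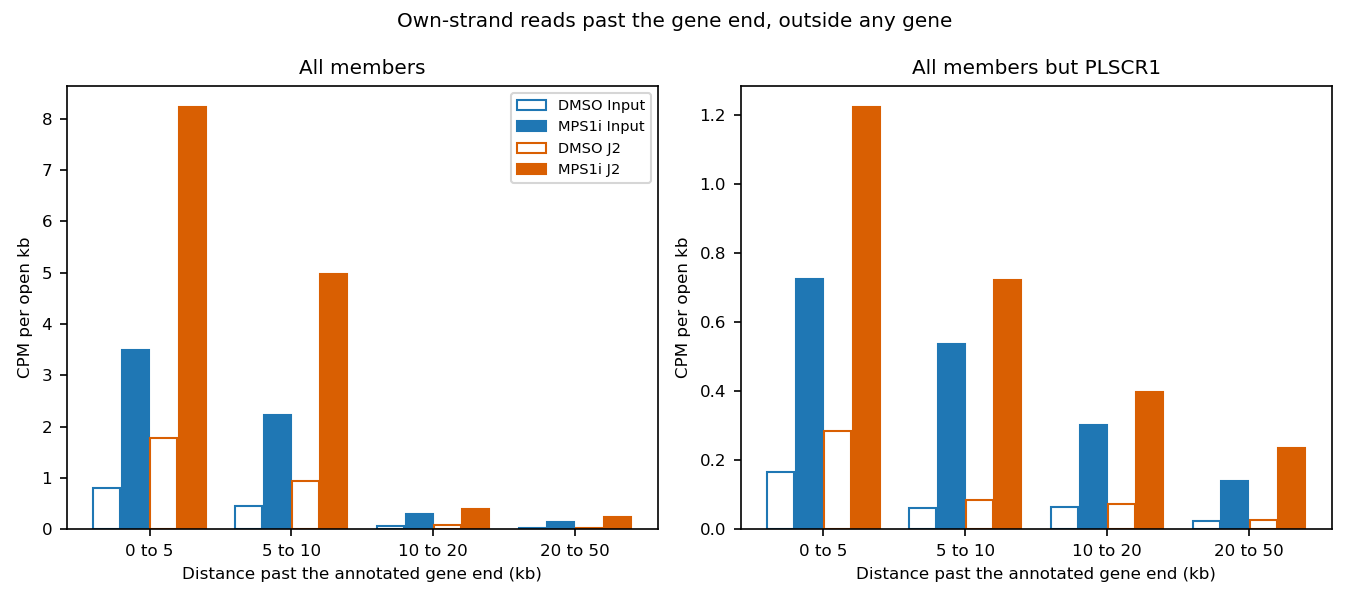
Own-strand CPM per open kilobase (y axis, from 0) by distance past the annotated gene end (x axis, kb) in the 4 libraries, for all members (left) and without PLSCR1 (right; another scale), over rows in no gene. Both MPS1i bars are above their DMSO bars in each window, and the level next to the gene ends falls from 8.23 to 1.22 in MPS1i J2 when PLSCR1 is left out.

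TMEM140 had no read in these sums, since its window overlaps CYREN and ends at the next gene on its strand, AC083862.2. A row that starts 3 bases past its end on its strand held 38 and 244 reads in Input and 69 and 416 in J2, with log2 ratios of 3.06 and 3.13. Up to AC083862.2, the window held 40, 279, 69 and 417 reads when rows opposite CYREN were kept. Further rows on that strand, from 6298 bases onward, lie outside this window, at or beyond the start of AC083862.2. They lie over endogenous retrovirus internal sequence (Harlequin, HERV3), for example one with 42 and 118 Input reads and one with 38 and 127 J2 reads. Whether they belong to TMEM140 transcripts was not tested. All of these rows carry the name CYREN in the tables.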

How the data were processed

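NCI-H1944 libraries came from Input and J2-bound RNA with a stranded total RNA kit, per the labels. The deposited values are raw read counts per stranded region, in 1 table for Input and 1 for J2. The submitters' processing notes name STAR, featureCounts, HOMER, cutadapt, Trimmomatic and Trim Galore with GRCh38 (hg38) but no version. How regions were called, multi-mapping reads treated and strand counted is not stated in those notes. Rows that name no gene hold 23.6% (DMSO) and 19.7% (MPS1i) of the Input and 0.65% and 0.883% of the J2 libraries. They stayed in the library totals but in no gene.

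The 36 members, their roles and the gene lists were chosen with earlier results of these data known. Members named with all 4 counts were the 20 with the largest gene body sums, those whose call differs between Input and J2, the extremes of each comparison and those under the minimum; others are given where a role or place was described. Counts were summed in Python 3.11.15 (pandas 2.3.3, scipy 1.17.1), and rows were placed in GENCODE 29 genes with bedtools 2.31.1. Ratios of CPM have exact Clopper-Pearson 95% intervals. Changes of enrichment have delta-method 95% intervals on counts plus 0.5, with at least 50 reads in J2 and 20 in Input. TMM and median-of-ratios factors were computed in R 4.3.3 with edgeR 4.0.16. Alternatives varied scaling, depth, minimum, fold, reads per region, leading regions, strand and annotation.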

Additional observations from a re-analysis of the deposited data

Results flagged for a closer look

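MOV10 by nearest name moved in opposite directions in the 2 materials, with intervals that exclude equality on both sides: the log2 ratio of MPS1i over DMSO was 0.44 (0.36 to 0.52) in Input and -0.63 (-0.77 to -0.49) in J2. Each side rests on 1 library pair, and the difference was not tested across replicates. Its named reads lie chiefly on the strand of CAPZA1, and on the own strand of MOV10 the Input ratio was 0.09 (-0.38 to 0.54).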

How the results depend on the processing

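No paired analysis was possible because each group holds 1 library. No call of MPS1i over DMSO by name reversed under the alternatives run. Single members were not checked this way for J2 over Input or for its change. There a call could reverse: in DMSO, MOV10 was lower by name at -1.54 and higher on the own strand at 1.14. Members without a call could change sign. IL15 in J2 was -0.25 (-0.40 to -0.10) by name and 0.39 (0.04 to 0.74) on the own strand. With at most 1 read per region, the count of called members was 3 in Input (21 as reported) and 4 in J2 (16), and 0 for J2 over Input in DMSO (8), in MPS1i (15) and for its change (8). At 4-fold these counts were 7, 8, 3, 6 and 3. Without each gene's most-read region, J2 over Input gave 3, 9 and 5 (DMSO, MPS1i, change), and on the own strand DMSO gave 3 and the change 5. A count minimum of 50 in DMSO alone, chosen after seeing the data, gave 5 for the change. The summed Intergenic and TTS ratio in Input was 0.88 downstream of gene ends only, under 2-fold. The opposite-strand share with at most 1 read per region was 22.5% (DMSO) and 16.1% (MPS1i) in Input and 27.3% and 14.9% in J2. Inside the span and outside other genes it was 17.3% in DMSO Input, 6.77% and 8.39% in J2. Without the most-read regions it was 17.4%, 7.51%, 15.0% and 6.86%. The cause of these changes was not tested, beyond the fewer reads that the alternatives use. TMM scaling moved the median of all genes from -0.18 to -0.06 in Input and from -0.15 to 0.00 in J2. For single members in MPS1i over DMSO, 407 of the recomputed values kept their side of the threshold, 49 lost it and 7 gained it. Of the 49, 30 were with at most 1 read per region. IFITM1, GBP1, RTP4 and TYMP were under 50 named gene body reads in both materials, and the part of depth in this was not tested.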
